A study of Mus musculus with 11 samples.

Results

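The forkhead factors Foxo1, Foxo3 and Foxo4 were followed over the first postnatal month in muscle cells of the mouse, together with 7 genes that FoxO factors are known to control or that act beside those targets: Fbxo32, Trim63, Sesn1, Ccng2, Btg1, Btg2 and Tob1. They were taken by name, as every probe set annotated with 1 of these symbols alone. That gave 26 of the 45037 probe sets tested, for 10 of 18193 genes. One further Foxo3 probe set, shared with Gm38485, was left out. Trim63, on its 1 probe set, rose between P12 and P28. So did both Btg2 probe sets, 2 of 3 of Fbxo32, 2 of 4 of Foxo1 and 1 of 2 of Tob1. Both Foxo4 probe sets, 1 of 2 of Ccng2 and 1 of 4 of Sesn1 fell over the same interval, and no Foxo3 probe set passed the test. Btg1 rose on 2 of 3 probe sets over the whole interval from P1 to P28.

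The cells came from Pax3GFP/+ mice of the C57BL/6J background at every age, so all of them carry 1 Pax3 allele that makes green fluorescent protein (GFP). Living GFP-positive cells were sorted by flow cytometry at postnatal day 1 (P1, n = 4 arrays) and day 12 (P12, n = 4 arrays) from trunk muscles, and the labels call these satellite cells proliferant. At day 28 (P28, n = 3 arrays) the labels name abdominal, pectoral and intercostal muscle and satellite cells without that word. The GFP gate covers only cells in which the Pax3 locus is or was recently active, no satellite cells of other muscles were sampled, and no array comes from mice with 2 intact Pax3 alleles. The arrays of an age are labelled biological replicates, with no statement of how many animals went into each. Age, list of muscles and a suffix of the internal sample names change together at P28 and cannot be told apart. Those internal names also start with the code used for P1, while titles and stated ages give P28, which was followed.

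FoxO factors are the transcription factors at the end of the insulin and IGF pathway. AKT phosphorylates them when growth signals are high, which holds them in the cytoplasm. When the signal drops they enter the nucleus and turn on genes of protein breakdown, autophagy, stress defence and cell cycle arrest. In muscle fibres they are best known for driving Fbxo32 (atrogin-1) and Trim63 (MuRF1), the ubiquitin ligases of wasting muscle, and in satellite cells for keeping the quiescent state. An array measures RNA, so it gives neither the phosphorylation nor the location of a FoxO protein.

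The promoters below are shown because they are those of the genes studied here that hold one of 3 motifs searched in the 250 bases before the start of transcription. The motifs were the FoxO core GTAAACA, the CRE palindrome TGACGTCA and the AP-1 site TGANTCA, each looked for on both strands, and they did not overlap in these windows. RefSeq promoters (build GRCm38.p6) were matched for 8 of the 10 genes, with 9 promoters in all. Fbxo32 and Foxo4 had no matched promoter and were not searched. The FoxO core was found in 2 of these 9 and in 3.17% of 32851 promoters of the same length. The CRE palindrome was found in 1 of 9 and in 1.55% of all, and the AP-1 site in 0 of 9 and in 6.75% of all. Each sequence runs 5′ to 3′ along its gene, and capitals mark the motif. In Trim63 and Btg1 the capitals read as the reverse complement of the FoxO core.
Trim63 promoter (chr4:134314870-134315119, plus strand, motif 194 bases before the start): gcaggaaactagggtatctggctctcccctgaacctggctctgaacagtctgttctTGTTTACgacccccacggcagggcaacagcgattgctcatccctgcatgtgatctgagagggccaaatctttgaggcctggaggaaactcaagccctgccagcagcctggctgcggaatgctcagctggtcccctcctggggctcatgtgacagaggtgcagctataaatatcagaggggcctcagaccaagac
Btg1 promoter (chr10:96616751-96617000, plus strand, motif 204 bases before the start): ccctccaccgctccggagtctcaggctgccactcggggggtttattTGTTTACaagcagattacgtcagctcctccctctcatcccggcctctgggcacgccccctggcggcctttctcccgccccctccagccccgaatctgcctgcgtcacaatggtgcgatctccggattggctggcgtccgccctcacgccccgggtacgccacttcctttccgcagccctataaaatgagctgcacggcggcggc
Btg2 promoter (chr1:134079156-134079405, minus strand, motif 166 bases before the start): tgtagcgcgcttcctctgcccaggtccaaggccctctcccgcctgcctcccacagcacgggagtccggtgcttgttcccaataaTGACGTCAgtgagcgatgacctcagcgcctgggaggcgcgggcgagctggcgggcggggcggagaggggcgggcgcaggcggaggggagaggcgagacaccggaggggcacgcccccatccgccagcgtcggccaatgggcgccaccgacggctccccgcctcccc
A match shows that the letters are present and not that a factor binds there. The windows of Foxo1, Foxo3, Sesn1, Ccng2 and Tob1 held none of the 3 motifs. Genes with a probe set that was higher at P28 than at P1 are found in both sets, with Trim63, Btg1 and Btg2 among those with a motif and Foxo1 and Tob1 among those without.

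Each value is a log2 expression value of 1 probe set, and changes are log2 differences ± SE from 1 limma fit over all 11 arrays, with Benjamini-Hochberg adjustment over 45037 probe sets. The words rose and fell are kept for an adjusted p under 0.05. Background, read from the Trp control probe sets for bacterial RNA, was 3.36 to 3.64, and array medians were 5.5 to 5.57. Levels of different probe sets cannot be set against each other, since each responds to its target in its own way. The satellite cell gene list was measured in full (12 of 12 genes), with array means between 9.58 and 10.12 at P1, 9.90 and 10.17 at P12, and 10.31 and 10.53 at P28. Between P12 and P28 4 of the 12 rose and 0 fell in limma (15.5% and 15.4% of all genes), with a median change of 0.02. Without P28 replicate 1 2 rose, and 1 fell without P1 replicate 1 or P12 replicate 4. Sdc4 and Cd34 rose by 1.86 ± 0.16 and 1.20 ± 0.17, while Pax7 differed by -0.06.

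Other signals moved with age beside the genes described here. The mean of 12 myofibre genes ranged from 8.11 to 8.46 among P1 arrays, from 8.70 to 9.62 among those of P12 and from 11.28 to 11.77 among those of P28. The mean of 9 endothelial genes was 5.72 to 6.51, 6.05 to 6.74 and 7.72 to 8.53 in the same order. Between P12 and P28 11 of 12 myofibre genes, 8 of 9 endothelial, 3 of 5 fibro-adipogenic, 3 of 7 macrophage and 3 of 5 smooth muscle or pericyte genes rose, where 15.5% of all genes did by 1 leading probe set a gene (5 macrophage genes without P1 replicate 1 or P28 replicate 1). The 18 immediate early genes, which respond within minutes to stress and tissue handling, averaged 10.39 to 11.21 on P1 arrays, 10.84 to 11.24 on P12 arrays and 11.78 to 12.02 on P28 arrays. The difference between the 3' and 5' Gapdh control probe sets, a measure of RNA integrity and labelling, was 1.62 to 2.79, 1.32 to 3.05 and 0.79 to 0.99. Xist, made from the inactive X chromosome of females, read 11.29 on P1 replicate 1, 5.82 to 5.96 on the other P1 arrays and 10.59 to 11.81 on all P12 and P28 arrays. The Y-linked Kdm5d read 5.76 on P1 replicate 1, 7.30 to 7.50 on the other P1 arrays, 6.28 to 6.72 at P12 and 4.23 to 5.32 at P28, and Eif2s3y 7.93, 9.34 to 9.64, 8.49 to 8.79 and 6.96 to 7.99 in the same order. The labels give no sex, and the mix of males and females may differ between arrays and ages, P12 and P28 included. What these signals contribute to the results was not tested. Fits with the Gapdh difference as a covariate are given, but that difference did not overlap between P28 and the earlier ages. Such a fit cannot separate it from age in comparisons with P28. A call can be lost there through a larger error alone. In sorted pools such as these, fewer cells of a type and less RNA per cell cannot be told apart.

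**Figure D1:**
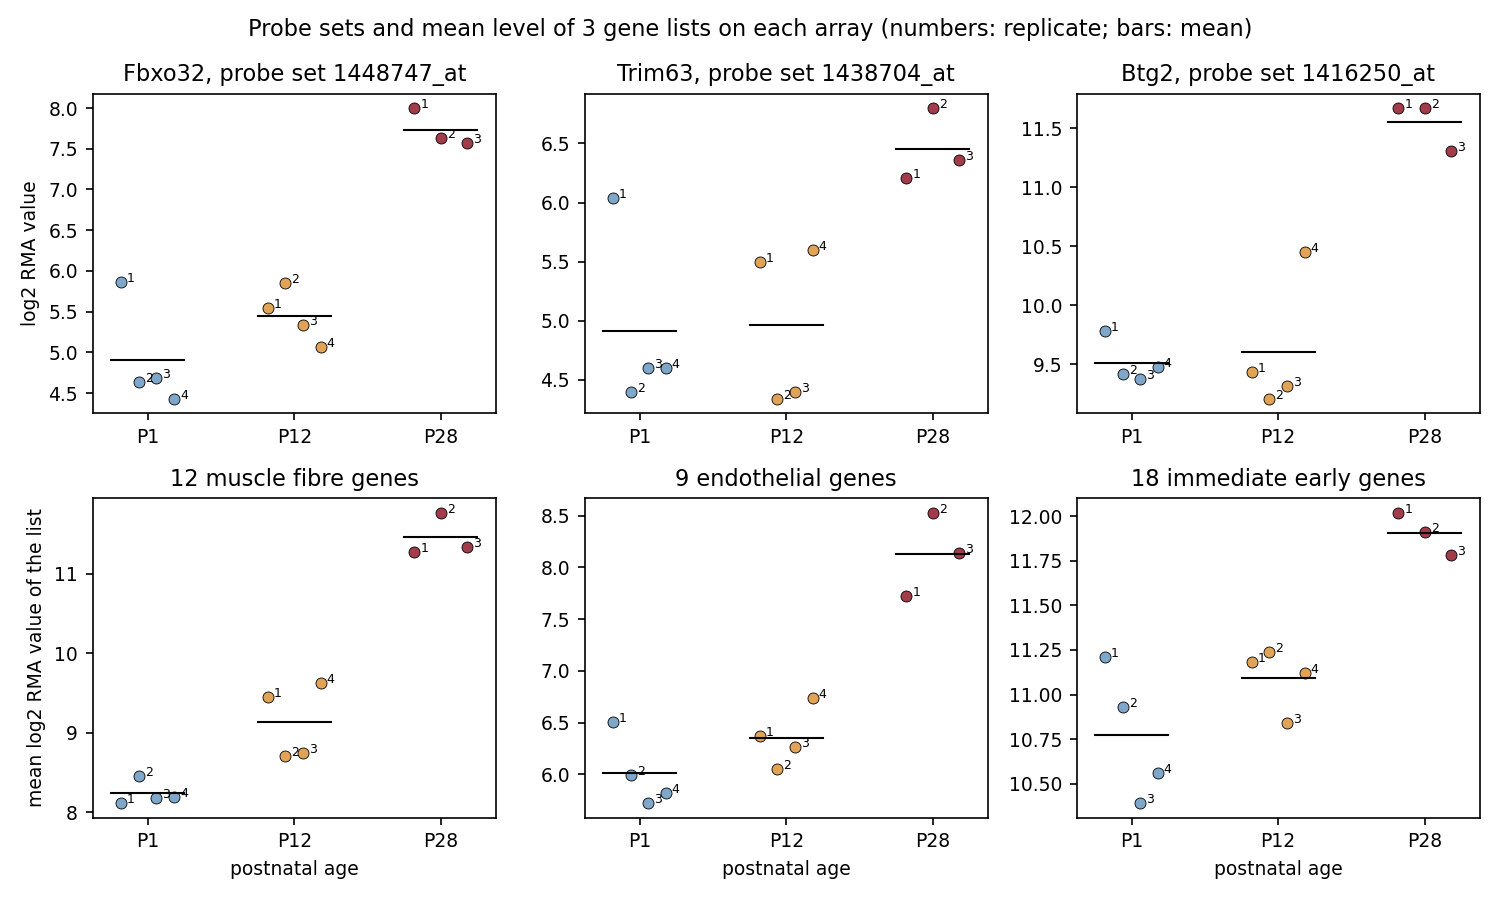
Log2 values of Fbxo32 1448747_at, Trim63 1438704_at and Btg2 1416250_at (upper panels) and array means of the myofibre, endothelial and immediate early lists (lower panels) are plotted by age, with 1 numbered point per array and a bar at the mean. The myofibre mean lies at 11.28 to 11.77 on the P28 arrays and at 8.11 to 9.62 on the others, and Fbxo32 is likewise highest at P28.

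Across the 10 genes calls were made at the step from P12 to P28 and over the whole interval. Between P1 and P12 0 of 26 probe sets passed in limma in either direction, where 4.84% of all probe sets did (3.25% higher and 1.59% lower), and 4 of 26 had an unadjusted p under 0.05. This count depends on how the replicates are handled: it was 1 higher with the replicate number as a block, in a fit of all arrays or of P1 and P12 alone, and 3 higher with the array set described with Btg1 as a block. Between P12 and P28 8 probe sets of 5 genes rose and 4 of 3 genes fell, which is 46.2% of the 26, where 29.4% of all probe sets passed (13.5% higher and 15.9% lower). Between P1 and P28 11 probe sets of 6 genes rose and 4 of 3 genes fell, or 57.7%, against 35% of all (17.6% higher and 17.4% lower). The median change of the 26 was 0.08 from P1 to P12, 0.20 from P12 to P28 and 0.33 from P1 to P28, and that of all probe sets 0.01, -0.05 and -0.05. The arrays of P28 lay wholly above those of P12 for 9 probe sets and wholly below for 4 (15.4% and 19.9% of all probe sets), and above or below those of P1 for 10 and 3 (19.3% and 21.4% of all). P12 lay wholly apart from P1 for 0 of 26 in either direction (6.18% and 4.16% of all). Both comparisons of P28 share its arrays and are not independent. Nor are the probe sets of 1 gene, and the genes were chosen with earlier results of these data known. The shares are therefore given as a description. With the Gapdh difference as a covariate the probe sets that fell numbered 2 in place of 4 relative to P12, and 1 in place of 4 relative to P1, and without P12 replicate 1 the former count was also 2.

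**Figure D2:**
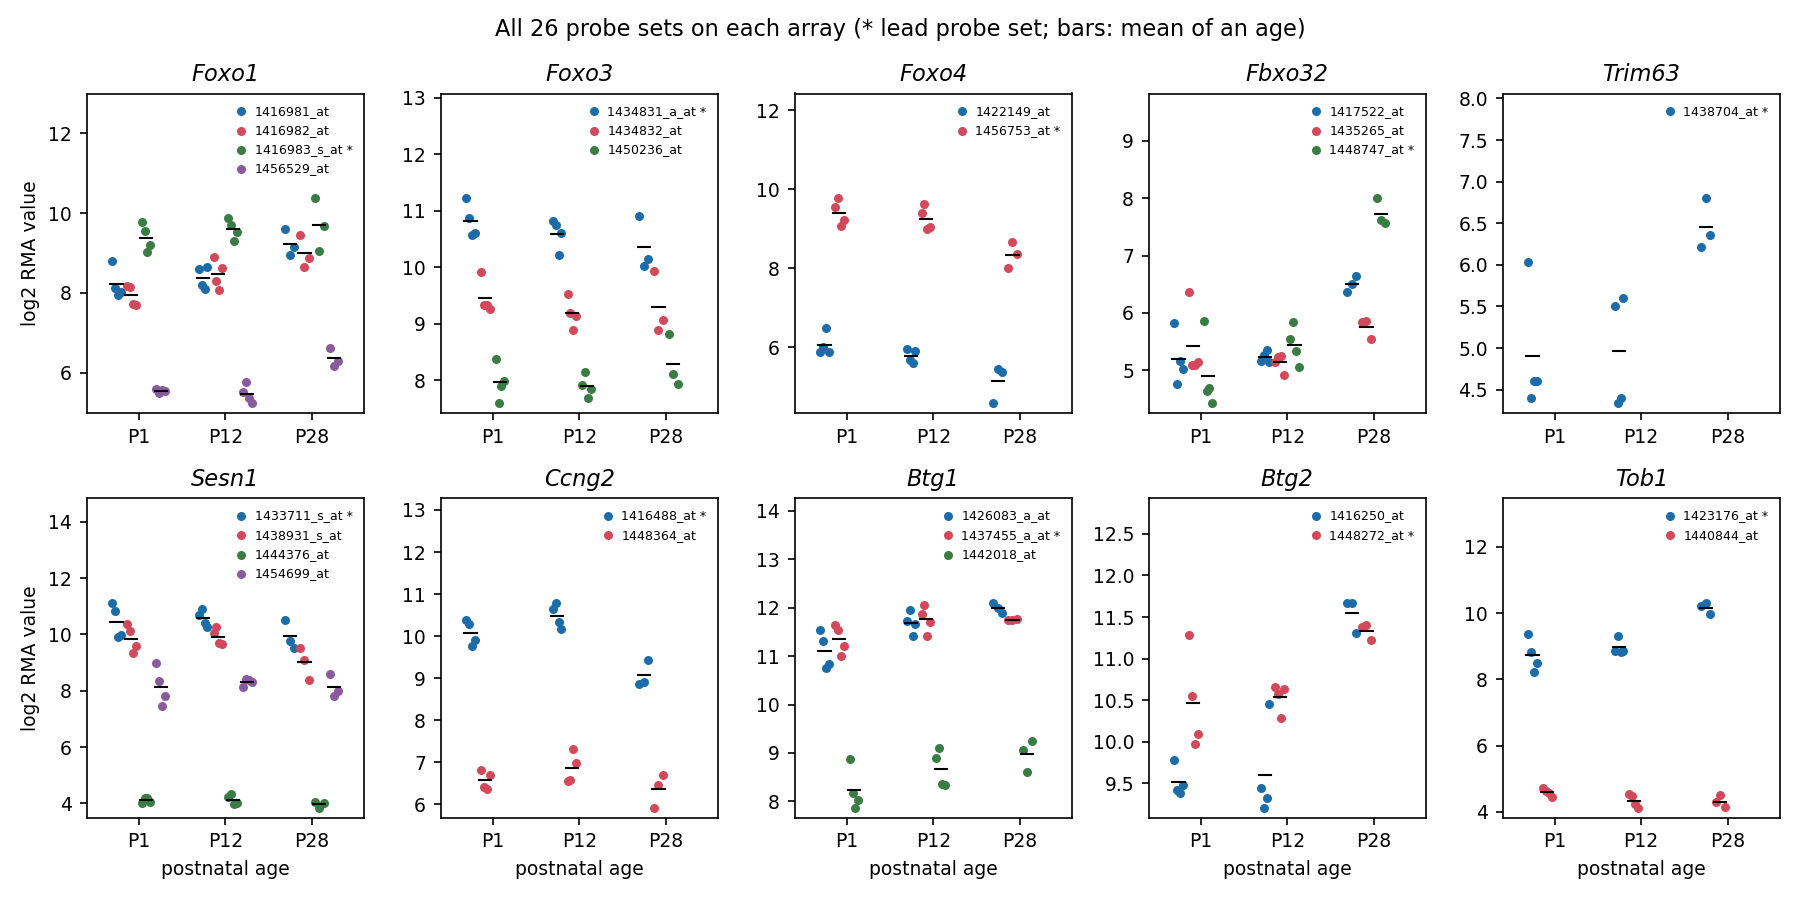
Log2 expression values of all 26 probe sets are plotted by age, a panel for each of the 10 genes and a colour for each probe set, with 1 point per array, a bar at each mean and an asterisk for the leading probe set. Trim63, Fbxo32 1448747_at, Btg2 1416250_at and Tob1 1423176_at are highest on the 3 P28 arrays, and Foxo4 1456753_at and Ccng2 1416488_at are lowest there.

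Foxo1, a FoxO factor studied in myoblast fusion and fibre type, rose on 3 of its 4 probe sets between P1 and P28. On 1416981_at the P1 arrays read 8.79, 8.13, 7.95 and 8.02, the P12 arrays 8.60, 8.19, 8.10 and 8.64, and the P28 arrays 9.61, 8.94 and 9.15. All P28 arrays lie above all others. The level was 0.85 ± 0.22 higher at P28 than at P12 (adjusted p = 0.00975, limma) and 1.01 ± 0.22 higher than at P1 (adjusted p = 0.00269).

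The dimmer Foxo1 probe set 1456529_at read 5.58, 5.49, 5.56 and 5.55 at P1, 5.51, 5.77, 5.36 and 5.24 at P12, and 6.61, 6.17 and 6.29 at P28. Again the P28 arrays stand clear of the rest, by 0.89 ± 0.15 over P12 (limma, adjusted p = 4.70e-04) and 0.81 ± 0.15 over P1 (adjusted p = 6.80e-04). On 1416982_at the values were 8.18, 8.15, 7.72 and 7.70 at P1, 8.89, 8.30, 8.06 and 8.63 at P12, and 9.45, 8.66 and 8.88 at P28. Its P12 arrays lie between and overlap both neighbours, so that the rise passed only over the whole interval, with 1.06 ± 0.22 (adjusted p = 0.00226) against 0.53 at P28 over P12 (adjusted p = 0.0949).

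The brightest Foxo1 probe set, 1416983_s_at, did not follow the others. It read 9.77, 9.54, 9.02 and 9.20 at P1, 9.88, 9.70, 9.30 and 9.53 at P12, and 10.37, 9.04 and 9.68 at P28. The ages overlap, and the spread within P28 alone covers nearly the whole range, with a difference of 0.09 between P28 and P12 (95% interval -0.47 to 0.66, adjusted p = 0.831). P28 replicate 1 was the highest P28 array on all 4 Foxo1 probe sets. Without it the rise of 1416981_at over P12 was 0.67 (adjusted p = 0.0536, limma).

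Foxo3, the FoxO factor most studied in muscle wasting and in stem cell quiescence, passed on none of its 3 probe sets in any comparison, where 36.3% of all probe sets passed the F test for any difference among the ages. The brightest, 1434831_a_at, read 11.22, 10.88, 10.58 and 10.61 at P1, 10.81, 10.75, 10.22 and 10.61 at P12, and 10.90, 10.03 and 10.14 at P28. The arrays of the 3 ages overlap, and P28 lay 0.47 below P1 (95% interval -0.94 to 0.01, adjusted p = 0.117). This difference passed without P28 replicate 1, at -0.74 (adjusted p = 0.015), and with a further quantile normalization, at -0.73 (adjusted p = 0.00763). On 1434832_at the values were 9.91, 9.34, 9.34 and 9.27, then 9.52, 9.19, 8.90 and 9.14, and at P28 9.94, 8.89 and 9.06. On 1450236_at they were 8.37, 7.60, 7.90 and 7.99, then 7.91, 8.15, 7.68 and 7.84, and at P28 8.82, 8.12 and 7.93. The intervals of P28 against P12 ran from -0.40 to 0.62 and from -0.06 to 0.86, so that changes of that size are within reach of the error.

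Foxo4, the X-linked member of the family, fell on both probe sets. The brighter, 1456753_at, read 9.56, 9.77, 9.06 and 9.22 at P1, 9.39, 9.62, 8.99 and 9.03 at P12, and 8.01, 8.66 and 8.35 at P28. Every P28 array lies below every earlier array, by 0.92 ± 0.21 from P12 (limma, adjusted p = 0.00461) and 1.06 ± 0.21 from P1 (adjusted p = 0.00133) in the means. P1 replicate 1, apart from the other P1 arrays by its Xist value, lies within their range here. The Y-linked genes were lowest at P28, where Foxo4 was lowest too, and the part of sex in its fall was not tested.

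On the dimmer Foxo4 probe set, 1422149_at, the P1 arrays read 5.87, 6.00, 6.47 and 5.88, the P12 arrays 5.94, 5.66, 5.60 and 5.91, and the P28 arrays 4.58, 5.44 and 5.36. P28 replicate 1 is the lowest on both Foxo4 probe sets, whereas it is the highest P28 array of Foxo1. The fall from P12 was -0.65 ± 0.21 (adjusted p = 0.0294, limma) and that from P1 -0.93 ± 0.21 (adjusted p = 0.00315). The first of these was no longer called without P12 replicate 1 (-0.60), P12 replicate 4 (-0.61) or P28 replicate 1 (-0.38, adjusted p = 0.16). With the Gapdh difference as a covariate the fall from P12 was -0.74 for 1422149_at (adjusted p = 0.077) and -0.45 for 1456753_at (adjusted p = 0.125), and that of 1456753_at from P1 was -0.57 (adjusted p = 0.0533).

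**Figure D3:**
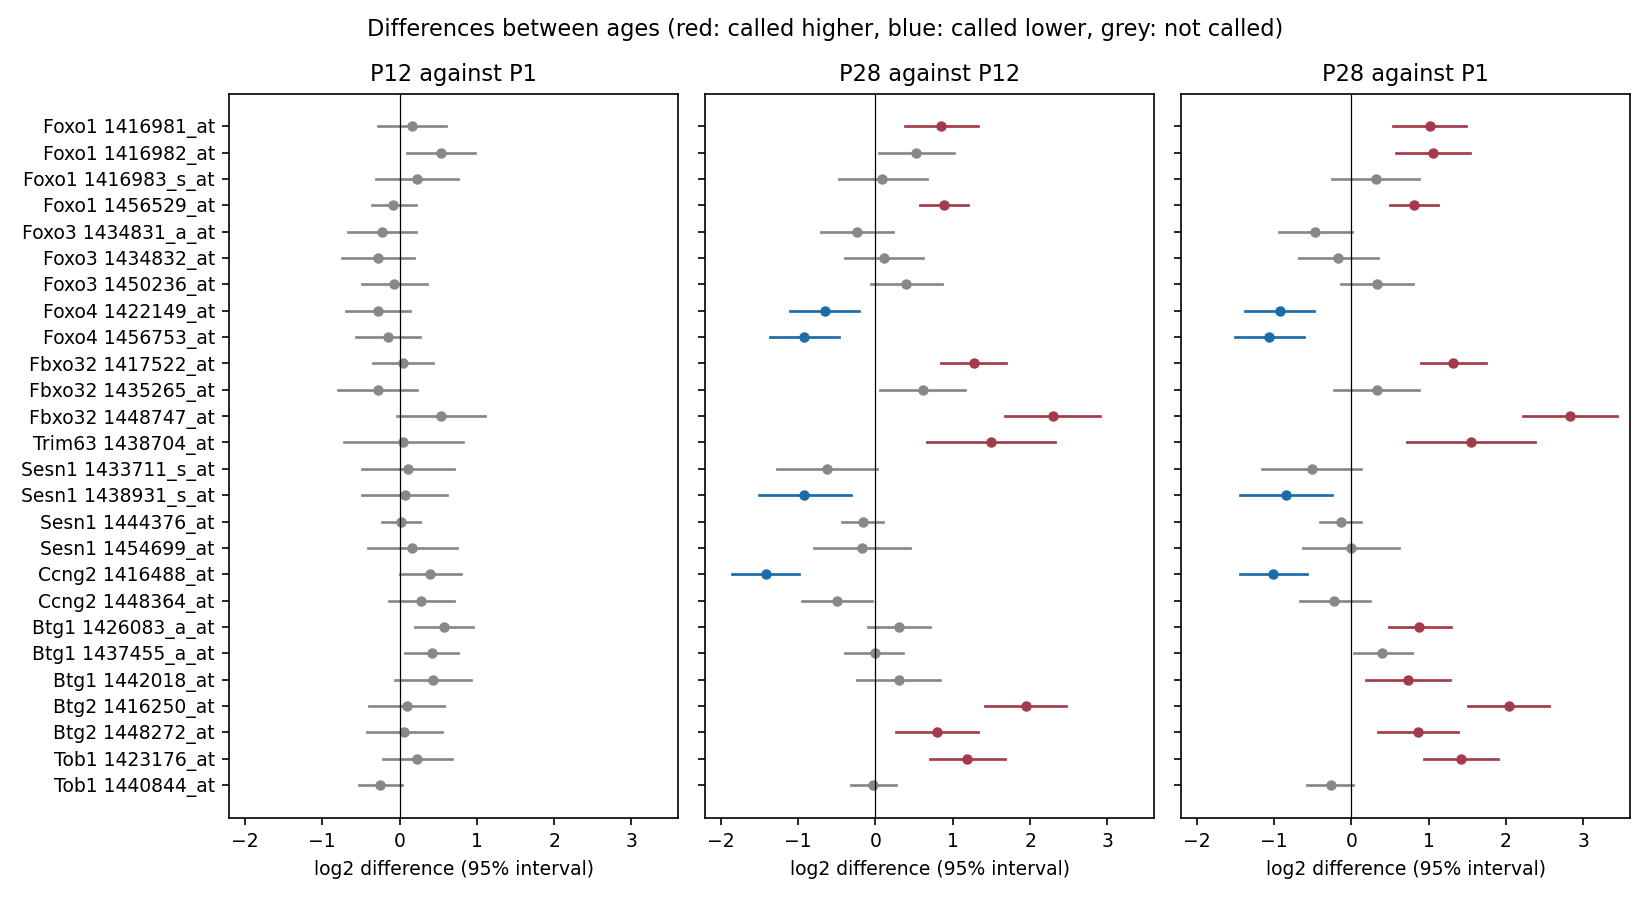
Log2 differences between ages are plotted for all 26 probe sets, with lines for the 95% interval, in red for a called increase, blue for a called decrease and grey otherwise. The largest increases at P28 over P12 are 2.29 for Fbxo32 and 1.95 for Btg2, the largest decrease is -1.42 for Ccng2, and every point for P12 against P1 is grey.

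Fbxo32 and Trim63 give the 2 muscle ubiquitin ligases most used as markers of atrophy. Fbxo32, the F-box subunit of an SCF ligase, had the largest change among the 10 genes. Its brightest probe set, 1448747_at, read 5.86, 4.64, 4.69 and 4.43 at P1, 5.55, 5.85, 5.33 and 5.06 at P12, and 8.0, 7.63 and 7.57 at P28. The 3 P28 arrays stand clear of all 8 others, while P1 replicate 1 reaches the top of the P12 range. The rise from P12 was 2.29 ± 0.29 (4.88-fold, limma, adjusted p = 5.88e-05) and that from P1 2.83 ± 0.29 (7.11-fold, adjusted p = 5.91e-06). Between P1 and P12 the difference was 0.54 (adjusted p = 0.294), and without P1 replicate 1 it was 0.86 and passed (adjusted p = 0.0166).

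The second Fbxo32 probe set, 1417522_at, moved the same way, with 5.82, 4.76, 5.17 and 5.02 at P1, 5.17, 5.27, 5.36 and 5.15 at P12, and 6.37, 6.51 and 6.65 at P28. Its P28 arrays also lie above all others, by 1.27 ± 0.20 over P12 (limma, adjusted p = 2.91e-04) and 1.32 ± 0.20 over P1 (adjusted p = 1.58e-04). The last, 1435265_at, read 6.37, 5.10, 5.09 and 5.14 at P1, 5.15, 5.24, 5.25 and 4.92 at P12, and 5.85, 5.86 and 5.54 at P28. Here P1 replicate 1 was above every P28 array, and neither difference passed (0.61 over P12, adjusted p = 0.0896, and 0.33 over P1, adjusted p = 0.352). Without that array both passed, at 0.61 (adjusted p = 0.00321) and 0.64 (adjusted p = 0.00315).

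Trim63, the RING-finger ligase that marks myosin and other thick filament proteins for breakdown, has 1 probe set, 1438704_at. It read 6.04, 4.40, 4.60 and 4.60 at P1, 5.5, 4.34, 4.40 and 5.60 at P12, and 6.21, 6.80 and 6.36 at P28. Before P28 the arrays fall into 5 arrays between 4.34 and 4.60 and 3 higher ones, P1 replicate 1 and P12 replicates 1 and 4, and every P28 array is above them all. The rise was 1.5 ± 0.39 over P12 (2.82-fold, limma, adjusted p = 0.00986) and 1.55 ± 0.39 over P1 (adjusted p = 0.00655). With the Gapdh covariate the size over P12 was 1.55, with an adjusted p of 0.0542. P12 replicates 1 and 4, the higher P12 arrays of Trim63, also had the higher myofibre means (9.45 and 9.62, against 8.7 and 8.74), while P1 replicate 1 had the lowest myofibre mean of its age (8.11).

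Both ligases are made by muscle fibres, and the myofibre genes rose at the same age. Within P12, Fbxo32 1448747_at was highest on replicate 2 (5.85) and lowest on replicate 4 (5.06). The myofibre means of those arrays were the lowest and the highest of P12 (8.70 and 9.62), unlike with Trim63. Myh4, the fast myosin heavy chain of IIb fibres, averaged 3.73, 7.06 and 11.30 at P1, P12 and P28, and Ckm, muscle creatine kinase, 8.72, 8.57 and 12.53. Between P1 and P12 5 of the 12 myofibre genes rose, where 3.94% of all genes did. Myh4 rose by 3.32 ± 0.40 (limma, adjusted p = 5.41e-04), while Ckm differed by -0.14 (adjusted p = 0.876). Neither ligase passed in that interval in the fit of all arrays, and Fbxo32 1448747_at passed without P1 replicate 1 (0.86). The part of the myofibre genes in the rise of the ligases was not tested.

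Of 18 further genes of muscle ubiquitin ligases and the proteasome, 6 rose and 2 fell between P12 and P28 (33.3% and 11.1%, where 15.5% and 15.4% of all genes did, by 1 leading probe set a gene). The median change was -0.15, against -0.03 for all genes. Those that rose included Trim54 (MuRF3), a sarcomere-bound relative of Trim63, by 1.28 ± 0.26, Asb2, a ligase subunit of growing muscle, by 0.90 ± 0.21, and Fbxo30 (MUSA1), a ligase restrained by BMP signalling, by 0.85 ± 0.22. Psmc4, an ATPase of the proteasome, fell by 0.41 ± 0.13 (limma, adjusted p = 0.0282). With the Gapdh covariate 3 rose and 0 fell in limma, and the count that fell was 0 or 1 without any 1 of P1 replicates 2 to 4, P12 replicates 1, 2 and 4, and P28 replicates 1 and 3. Of 13 genes of signals that act on the ligases from outside the FoxO pathway, 4 rose and 0 fell in limma. These are 30.8% and 0%, where 15.5% and 15.4% of all genes did. In this list 1 gene fell without P12 replicate 1, P12 replicate 3 or P28 replicate 1. Those that rose include Tnfrsf12a, the TWEAK receptor, by 1.81 ± 0.20, and Rela, a subunit of NF-kB, by 1.43 ± 0.23. Tsc22d3 (GILZ), listed as a target of glucocorticoids and not as a regulator of the ligases, rose by 1.46 ± 0.36.

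Sesn1, a stress-induced sestrin that holds back the growth kinase complex mTORC1, did not behave alike on its probe sets. The brightest, 1433711_s_at, read 11.12, 10.82, 9.91 and 9.98 at P1, 10.69, 10.91, 10.41 and 10.26 at P12, and 10.52, 9.77 and 9.53 at P28. Within P1 replicates 1 and 2 lie about a log2 unit above replicates 3 and 4, a split wider than the difference between the means of P12 and P28. The difference of P28 from P12 was -0.63 (95% interval -1.27 to 0.02, adjusted p = 0.136).

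The related Sesn1 probe set 1438931_s_at read 10.36, 10.11, 9.33 and 9.59 at P1, 10.05, 10.28, 9.70 and 9.65 at P12, and 9.52, 9.10 and 8.39 at P28. All P28 arrays were below all P12 arrays, while replicate 1 of P28 overlapped P1. It fell by 0.92 ± 0.28 from P12 (limma, adjusted p = 0.0232) and by 0.84 ± 0.28 from P1 (adjusted p = 0.0293). The call over P12 was lost without P12 replicate 1 (-0.87), P12 replicate 2 (-0.80) or P28 replicate 3 (-0.61), that over P1 without P1 replicate 1 (-0.67), P1 replicate 2 (-0.76), P28 replicate 2 (-0.89) or P28 replicate 3 (-0.54). With the Gapdh covariate both were lost, at -0.34 and -0.23.

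Neither remaining Sesn1 probe set passed: 1454699_at differed by -0.17 between P28 and P12, and 1444376_at stayed at 3.85 to 4.33 on every array. Of 18 genes of the sestrin, GATOR and Rag pathway to mTORC1, 3 rose and 5 fell between P12 and P28 (16.7% and 27.8%, where 15.5% and 15.4% of all genes did), with a median change of -0.14. With the Gapdh covariate 1 rose and 0 fell in limma, and the count that fell was 2 or 3 without P12 replicate 1, P12 replicate 2 or any 1 P28 array. Sesn2, the sestrin induced by amino acid shortage, rose by 0.77 ± 0.16 (limma, adjusted p = 0.0024), from a mean of 6.30 to 7.07. Rragd, a Rag GTPase, fell by 0.70 ± 0.15 (adjusted p = 0.00273).

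Ccng2, an unusual cyclin that accompanies cell cycle arrest and is a textbook FoxO target, fell at P28. Its brighter probe set, 1416488_at, read 10.38, 10.28, 9.76 and 9.91 at P1, 10.65, 10.79, 10.34 and 10.17 at P12, and 8.87, 8.90 and 9.44 at P28. The P28 arrays are below all 8 others. The fall was -1.42 ± 0.20 from P12 (limma, adjusted p = 1.48e-04) and -1.01 ± 0.20 from P1 (adjusted p = 0.00138). With the Gapdh covariate the fall from P1 was -0.58 (adjusted p = 0.0564).

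On the dimmer Ccng2 probe set, 1448364_at, the arrays read 6.82, 6.42, 6.37 and 6.69, then 6.56, 6.58, 7.31 and 6.98, and at P28 5.92, 6.45 and 6.69. The ages overlap, and P28 differed from P12 by -0.50 (adjusted p = 0.0937, limma), or by -0.67 without P28 replicate 3 (adjusted p = 0.048). Between P1 and P12 the brighter probe set differed by 0.40 (adjusted p = 0.257). Its direction was opposite to that of its relative Ccng1, a p53 target, which rose by 1.61 ± 0.22 between P12 and P28 (limma, adjusted p = 1.10e-04). In the same interval 15 of 17 proliferation genes fell and 0 rose in limma (15.4% and 15.5% of all genes), and Top2a, a topoisomerase of dividing cells, fell by 1.76 ± 0.30.

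Btg1, Btg2 and Tob1 belong to a family of antiproliferative proteins that bind the CCR4-NOT deadenylase and speed up the decay of mRNA. Btg2 showed the strongest change of the family. On 1416250_at the arrays read 9.78, 9.42, 9.38 and 9.48 at P1, 9.44, 9.21, 9.32 and 10.45 at P12, and 11.67, 11.67 and 11.31 at P28. All P28 arrays are above all others, and P12 replicate 4 is about a log2 unit above the other P12 arrays. The rise was 1.95 ± 0.24 over P12 (3.86-fold, limma, adjusted p = 5.93e-05) and 2.04 ± 0.24 over P1 (adjusted p = 2.62e-05).

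The brighter Btg2 probe set, 1448272_at, moved less, with 11.28, 10.55, 9.97 and 10.09 at P1, 10.66, 10.57, 10.29 and 10.64 at P12, and 11.38, 11.40 and 11.23 at P28. P1 replicate 1 reaches into the range of P28, and the P12 arrays stay below it. The rise was 0.79 ± 0.24 over P12 (limma, adjusted p = 0.0245) and 0.86 ± 0.24 over P1 (adjusted p = 0.0137). The first call was lost without P12 replicate 3 (0.71), P28 replicate 1 (0.77) or P28 replicate 2 (0.76).

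Tob1 rose on its brighter probe set, 1423176_at, from 9.38, 8.84, 8.23 and 8.49 at P1 and 8.86, 9.31, 8.84 and 8.86 at P12 to 10.21, 10.31 and 9.96 at P28. The P28 arrays are close together and clear of the others. The rise was 1.19 ± 0.22 over P12 (limma, adjusted p = 0.00129) and 1.42 ± 0.22 over P1 (adjusted p = 2.53e-04). The other Tob1 probe set, 1440844_at, read 4.13 to 4.72 over the 11 arrays and did not pass.

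Btg1 differed from both in its course. On 1426083_a_at the arrays read 11.54, 11.32, 10.76 and 10.84 at P1, 11.72, 11.96, 11.42 and 11.67 at P12, and 12.10, 12.00 and 11.89 at P28. The P12 arrays lie between and overlap both neighbours. Only the whole interval passed, with 0.88 ± 0.19 (limma, adjusted p = 0.00235), against 0.58 for P12 over P1 (adjusted p = 0.0785) and 0.31 for P28 over P12 (adjusted p = 0.248). The P12 over P1 difference passed without P1 replicate 1, at 0.72 (adjusted p = 0.0254), and with the replicate number as a block over the P1 and P12 arrays, at 0.58 (adjusted p = 0.0284).

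Within each age P1 and P12 hold replicates 1 and 2 and replicates 3 and 4 that differ in the Gapdh controls, and these pairs were treated as array sets. With the set as a block the P12 over P1 difference of 1426083_a_at was called (0.58, limma, adjusted p = 0.015), as were those of the Btg1 probe set 1437455_a_at (0.42, adjusted p = 0.0416) and Ccng2 1416488_at (0.40, adjusted p = 0.034). Within the sets 1426083_a_at differed by 0.41 and 0.75, and Ccng2 1416488_at by 0.39 and 0.42. The brightest Btg1 probe set, 1437455_a_at, read 11.65, 11.53, 11.00 and 11.20 at P1, 11.87, 12.05, 11.42 and 11.70 at P12, and 11.74, 11.74 and 11.76 at P28, and did not pass in the fit without the block (P28 over P1 0.40, adjusted p = 0.0888). The remaining one, 1442018_at, read 8.87, 8.17, 7.87 and 8.03 at P1, 8.89, 9.11, 8.35 and 8.33 at P12, and 9.05, 8.61 and 9.25 at P28. It was 0.73 ± 0.25 higher at P28 than at P1 (adjusted p = 0.0357), with overlapping arrays, and was not called without any 1 of P1 replicates 2 to 4, P28 replicate 1 or P28 replicate 3 (0.59 to 0.71).

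Genes linked to the deadenylase that these proteins recruit mostly fell. The list holds 16 genes of the CCR4-NOT and PAN complexes, other BTG and TOB proteins and Pabpc1. Of these, 0 rose and 11 fell between P12 and P28 in limma (68.8%, where 15.4% of all genes fell), with a median of -0.55 against -0.03. The 11 include Btg4, Pan2 and Pan3, which are not CCR4-NOT subunits. Cnot2 and Cnot3, scaffold subunits, fell by 1.06 ± 0.17 and 0.93 ± 0.21, and Cnot6, a catalytic subunit, by 0.99 ± 0.16. The count that fell was 4 with the Gapdh covariate and 7 without P12 replicate 2.

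Upstream of the FoxO factors, 5 of 27 insulin, PI3K and AKT genes rose and 5 fell between P12 and P28, with a median of -0.08. These shares (18.5% each) are near those of all genes (15.5% and 15.4%). The count that fell was 2 without P12 replicate 2 or P28 replicate 2 and 3 without P28 replicate 1 or with the Gapdh covariate, and the count that rose was 3 without P28 replicate 3. Sgk1, a kinase that like AKT phosphorylates FoxO factors, rose at both steps, by 1.09 ± 0.21 from P1 to P12 (limma, adjusted p = 0.00942) and by 2.66 ± 0.22 from P12 to P28 (adjusted p = 2.06e-06). Its mean went from 8.78 to 9.87 and 12.53. Insr, the insulin receptor, fell at both steps, by 0.87 ± 0.16 and 0.93 ± 0.17, from 8.95 to 8.08 and 7.15. The receptor substrates parted: between P12 and P28 Irs2 rose by 1.69 ± 0.21 and Irs1 fell by 1.19 ± 0.18 (adjusted p = 4.66e-05 and 2.32e-04, limma). Igf1r, the IGF1 receptor, fell by 0.97 ± 0.22 over the whole interval from P1 to P28.

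Among 16 genes whose products modify or carry FoxO proteins, 1 rose and 6 fell between P12 and P28 (6.25% and 37.5%, where 15.5% and 15.4% of all genes did), with a median of -0.32. Skp2, the ligase subunit that targets Foxo1 for degradation and also serves the cell cycle, fell by 1.89 ± 0.22 (limma, adjusted p = 3.61e-05), and Xpo1, the nuclear export receptor, by 0.84 ± 0.19 (adjusted p = 0.00441). Mdm2, a ligase best known for p53, rose by 0.70 ± 0.18 (adjusted p = 0.0114). With the Gapdh covariate 2 of the 16 rose and 1 fell, and 0 rose in limma without P28 replicate 3.

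Other known FoxO targets were more often higher than lower at P28. Of 23 targets in cell cycle, stress and metabolism 11 rose and 2 fell between P12 and P28 (47.8% and 8.7%, where 15.5% and 15.4% of all genes did), with a median of 0.42. The list does not separate targets that FoxO factors raise from those they lower, so these counts are no measure of FoxO activity. Irs2, which rose, and Insr, which fell, are also counted among the insulin genes. Klf2, a zinc finger factor also abundant in endothelium, rose by 2.69 ± 0.21, and Gadd45a, a growth arrest gene of DNA damage, by 1.13 ± 0.12. Plk1, a mitotic kinase, fell by 1.10 ± 0.26. Of 29 autophagy genes 8 rose and 3 fell (27.6% and 10.3%), with a median of 0.04: the mitophagy receptor Bnip3 rose by 2.06 ± 0.29, the cargo receptor Sqstm1 by 1.68 ± 0.21 and the lysosomal protease Ctsl by 1.54 ± 0.19. Pik3r4 and Wipi2, which act in the formation of the autophagosome, fell by 0.58 ± 0.18 and 0.54 ± 0.16, and the count that fell was 1 with the Gapdh covariate or without P12 replicate 1, P12 replicate 2, P28 replicate 1 or P28 replicate 3. From P1 to P12 0 of the 29 passed in limma in either direction, where 3.94% of all genes rose and 1.85% fell, and 5 rose with the array set as a block. From P1 to P28 12 rose and 0 fell in limma, where the shares of all genes were 19.9% and 16.3%.

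**Figure D4:**
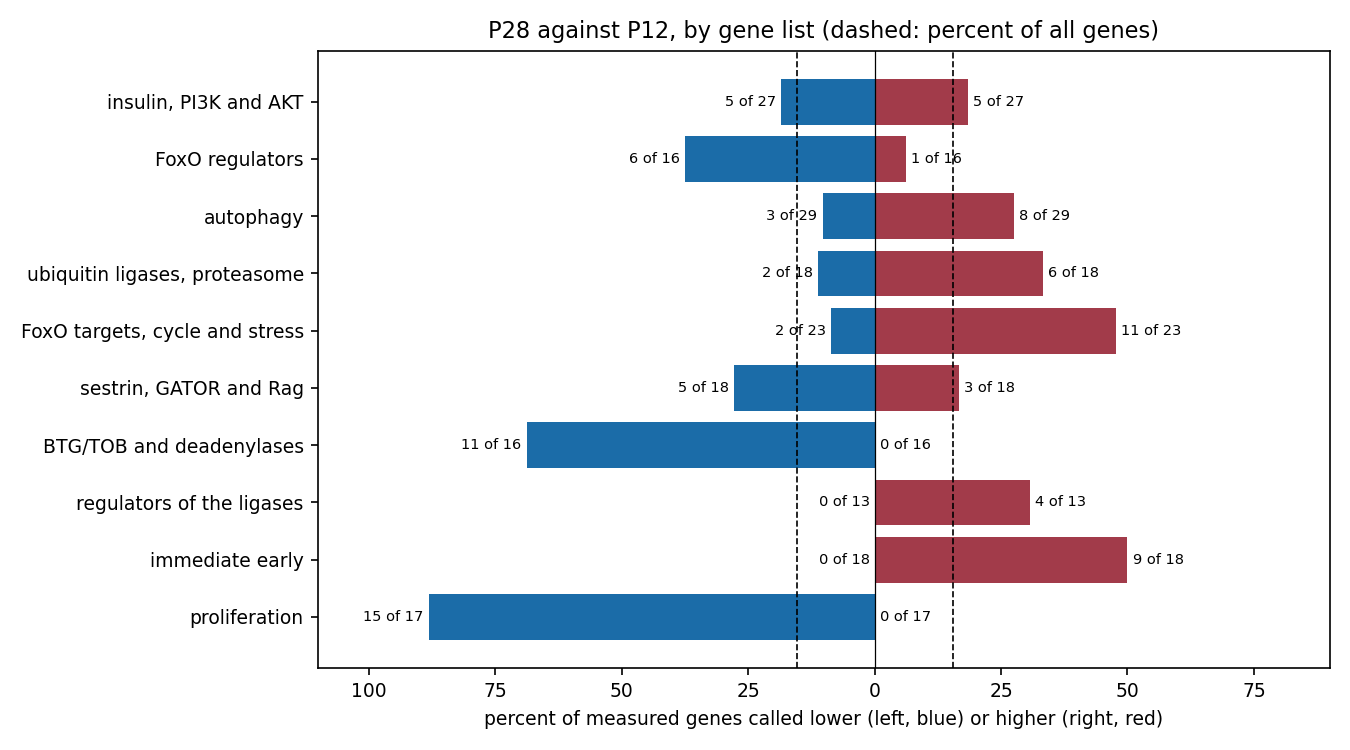
The percentages of measured genes of each list that rose (right) or fell (left) between P12 and P28 are plotted as bars, with dashed lines for all genes at 15.5% and 15.4%. The FoxO targets stand at 47.8% higher, and the deadenylase list at 68.8% lower.

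Genes with the most similar course were found by the root mean square difference of centred log2 values over the 11 arrays, which share the arrays and their normalization and are given as a description. For Fbxo32 these were Atf3 (0.23), Klf4 (0.26) and Errfi1 (0.27), where the median over all genes was 1.24, and for Tob1 Maff (0.14), Slc2a3 (0.15) and Nr4a1 (0.15), with a median of 0.69. Those medians are near the root mean square of the centred values of Fbxo32 and Tob1 themselves (1.23 and 0.66), the distance of a flat gene. Any gene with a like step at P28 lies below them. Atf3, Klf4, Maff and Nr4a1 code for transcription factors that are rapidly induced by stimuli, and Atf3 averaged 9.80, 10.27 and 12.48 at P1, P12 and P28. Of the 18 immediate early genes 9 rose and 0 fell between P12 and P28 in limma (15.5% and 15.4% of all genes), and 1 fell without P12 replicate 3. Nearest to Trim63 were Upk3b (0.20), Hp (0.27) and Adgrl4 (0.29). Nearest to Btg2, by its leading probe set 1448272_at, were Dpp8 (0.13), Oplah (0.14) and Stom (0.16).

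For the genes that fell, the nearest to Foxo4 were Cnot2 (0.13), Snn (0.14) and Arhgap39 (0.14), and Cnot2 is a member of the deadenylase list. Those nearest to Ccng2 were Purb (0.16), Ezh2 (0.16) and Cep43 (0.17). Ezh2, the methyltransferase of the Polycomb complex, averaged 9.49, 9.79 and 8.40 at P1, P12 and P28.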

How the data were processed

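The authors deposited log2 expression values per probe set for 11 Affymetrix arrays. The submitters' processing notes name Affymetrix Expression Console, RMA and affy, with no version or role, and RMA corrects background, normalizes quantiles and summarizes probes, so levels are relative to the other arrays. Whether all arrays were processed together is not given in the sources used here, and the lowest values set the P28 arrays apart from the others. No further normalization was applied. The number of arrays limits the precision.

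Without 64 control probe sets, 45037 of 45101 were tested, of which 34945 carry 1 gene symbol, 932 several and 9160 none. Entrez identifiers of 34741 matched the RefSeq table, and 0 symbols were updated. For list genes the brightest probe set on average (the leading one) stood for the gene. limma 3.58.1 in R 4.3.3 fitted group means of P1, P12 and P28 (8 residual degrees of freedom), with two-sided moderated tests adjusted by the Benjamini-Hochberg method. On simulated data for P28 against P12, with 200 of 45037 probe sets changed, it recovered 5.97%, 94% and 100% of changes of log2 0.5, 1 and 2. In the data 29.4% of all probe sets passed in this comparison. The adjustment was therefore stricter in the simulation, and its shares are not those of the data. Small changes can still be missed.

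The genes and lists were chosen with earlier results of these data known. All probe sets of the 10 genes are given. From each list up to 3 passing genes in each direction with the largest change and no overlap of arrays could be named, and for similar course the 3 nearest genes of each gene whose leading probe set passed the F test. No 2 arrays were identical (0 pairs). Deviations from the age means correlated at 0.14 to 0.31 in the 4 same-numbered pairs of P1 and P12, over 0.1 in all. The main fit has no block for these numbers, so its P12 against P1 tests are unpaired. They were taken as pairs only in the alternative fits with the replicate number as a block. The titles give the numbers, and nothing in the labels says what they share. The 4 differently numbered pairs within an array set correlated at 0.14 to 0.25, so number and set are hard to separate. The 6 same-numbered pairs with P28 lay between -0.12 and 0.09 and were not taken as pairs. Alternatives covered normalization, filters, array weights, the array set, the Gapdh covariate and leaving out each array. A fit on array set 2 of P1 and P12 with all P28 arrays, and the replicate block over P1 and P12 alone, were chosen after seeing the data.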

Additional observations from a re-analysis of the deposited data

Results flagged for a closer look

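In 4 of the 52 groups of 4 arrays examined, 1 array lay apart from the other 3 by more than Dixon's 95% critical value, which chance gives in about 1 of 20 groups. In 3 of the 4 the array was P1 replicate 1. It read 9.91 for Foxo3 1434832_at, where the other P1 arrays read 9.27 to 9.34. It read 6.37 for Fbxo32 1435265_at, where the others read 5.09 to 5.14. For Trim63 1438704_at it read 6.04, against 4.40 to 4.60. The other case was P12 replicate 2 for Tob1 1423176_at, at 9.31 against 8.84 to 8.86. The cause was not tested.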

How the results depend on the processing

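For 45 values of leading or called probe sets 660 alternative results were computed: 602 kept their direction and side of the threshold, 19 passed where they had not, 18 no longer passed and 21 changed sign. Over all 26 probe sets 53 results changed sign, and 0 of these were of called values. The count of probe sets higher at P12 than at P1, which was 0, became 1 with array weights, 1 with the replicate block (all arrays, or P1 and P12 only), 2 with the Gapdh covariate, 3 with the array set as a block and 2 within array set 2. The counts lower at P28 became 2 against P12 and 1 against P1 with the Gapdh covariate. Leaving out 1 array gave 0 to 2 higher and 0 to 0 lower for P12 against P1, 6 to 9 higher and 2 to 4 lower for P28 against P12, 10 to 13 higher and 3 to 5 lower for P28 against P1, and 11 to 17 in the F test.

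Among the leading or called probe sets the values that changed sign follow. For P12 against P1, Trim63 was -0.30 within array set 1 and -0.16 to 0.43 with 1 array left out. Sesn1 1433711_s_at was -0.10 with quantile normalization, -0.17 within set 1 and -0.07 to 0.33 with 1 array left out. Btg2 1448272_at was -0.16, -0.30 and -0.10 to 0.33 in the same order, and Tob1 1423176_at was -0.03 within set 1 and -0.01 as the mean of its probe sets. For P28 against P12, Foxo1 1416983_s_at was -0.24 without P28 replicate 1 to 0.42 without P28 replicate 2, Foxo3 1434831_a_at 0.13 with the Gapdh covariate and 0.09 as the mean of probe sets, and Sesn1 1433711_s_at 0.02 with the covariate. Btg1 1437455_a_at was 0.01 with median centring, 0.38 with the covariate, 0.19 with array set 2 only, 0.20 as the mean of probe sets and -0.13 to 0.08 with 1 array left out. For P28 against P1, Foxo1 1416983_s_at was -0.02 without P28 replicate 1 and Sesn1 1433711_s_at 0.18 with the covariate.

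Beside the count for P12 against P1, the replicate block over all arrays, whose numbers do not pair P28 with the other ages, added the calls of Foxo1 1416982_at (0.51) and Sesn1 1433711_s_at (-0.76) for P28 against P12 and of Foxo3 1434831_a_at (-0.50) and Sesn1 1433711_s_at (-0.65) for P28 against P1, and ended that of Btg1 1442018_at (0.64). Array set 2 only ended the calls of Sesn1 1438931_s_at (-0.67 and -0.45) and of Foxo4 1422149_at against P12 (-0.63). Probe sets near the Trp background (3.36 to 3.64) can hide a change.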

Other observations

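Within P1, replicate 1 was the highest array for 23 of the 26 probe sets (88.5%), where it was the highest for 30.6% of all probe sets. Within P12 replicate 2 was the highest for 13 of 26 (50%, against 30.4% of all), and within P28 replicate 1 for 13 of 26 (50%, against 31%). The probe sets of a gene and genes of shared control are not independent, and no test was made.

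Some genes known to respond to glucocorticoids, chosen after their values were seen, were also highest in replicate 1 at P1 and at P28. Fkbp5, a cochaperone of the glucocorticoid receptor, read 9.31, 7.88, 7.74 and 7.80 on the P1 arrays, 7.59, 7.31, 7.55 and 7.95 on the P12 arrays, and 9.58, 7.56 and 8.04 on the P28 arrays. Klf15, a zinc finger factor that acts with the receptor on Fbxo32 and Trim63 in muscle, read 8.27, 6.70, 6.18 and 6.20 at P1, 6.46, 5.99, 5.81 and 6.13 at P12, and 7.53, 6.94 and 6.44 at P28. Tsc22d3 read 8.60, 7.68, 7.71 and 7.85 at P1, 8.11, 7.75, 8.09 and 9.02 at P12, and 10.67, 9.04 and 9.40 at P28. For these 3 genes the order of the other arrays and the highest P12 array differed, and Nr3c1, the receptor itself, was highest in replicate 2 at P1 (9.20, 9.30, 8.72 and 8.73). P1 replicate 1 is also the P1 array with a high Xist value. What links these values was not tested.

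The Foxo3 probe set shared with Gm38485, 1444226_at, read 6.78, 6.43, 6.07 and 6.09 at P1, 6.70, 6.35, 6.07 and 6.36 at P12, and 7.03, 6.55 and 6.53 at P28. P28 differed from P12 by 0.33 (adjusted p = 0.233, limma), and the arrays overlap.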
